A study of Mus musculus with 8 samples.

Results

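The LIM homeobox genes encode transcription factors in which a pair of LIM zinc-finger domains precedes a DNA-binding homeodomain. H3K27me3, the repressive histone mark written by Polycomb repressive complex 2, was measured over 10 of them: Lhx2, Lhx3, Lhx4, Lhx5, Lhx6, Lhx8, Lhx9, Lmx1a, Lmx1b and Isl2. Each was represented by the transcript interval whose span best matched its RefSeq gene on mm10 (overlap of at least 0.5 of the union). All 10 listed genes found such an interval, with an overlap of 0.947 or more, out of 20227 named genes on the chromosomes analysed (1 to 10, X, Y and M). Lhx1 and Isl1 belong to the same family and were not analysed here.

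The libraries came from mouse embryonic stem cells of the E14tg2a line (129SV background), in which 2 clones, A and B, stably carried cRAF-ErT2, a RAF kinase fusion that 4-hydroxytamoxifen (4OHT) switches on to drive ERK signalling. All cells had been kept with serum, LIF and 2 µM Chir99021, which inhibits GSK3, and for the last 24 h PD173074, which blocks FGF receptors, had been present at 250 nM alongside serum and LIF. The 2 h group then received 250 nM 4OHT for 2 h, and the 0 h group was left untreated. Each group held 1 library of clone A and 1 of clone B (n = 2), so both groups carried the transgene, and the clones, which come from 1 line, are the replicates. The labels name no vehicle for the 0 h cells and no promoter for the cassette.

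LIM homeodomain factors are known as selectors of cell identity in the developing nervous system, pituitary, limb and gonad. Their LIM domains bind the adaptor Ldb1, which joins them into complexes with each other or with other DNA-binding factors, and LIM-only proteins compete for the same adaptor. In embryonic stem cells such developmental regulators are typically silent and held by Polycomb, often at promoters rich in CpG dinucleotides.

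Column totals ran from 70378127 to 92518605 counts and the 10 intervals held between 2569 and 25785 counts in a library. Density is given as counts per kb and per 1000000 counts of the column total, and a gene with at least 4 times the density of the median named gene (0.357) is called marked. Input libraries were not analysed here, so a density is not an enrichment over input. Of all named genes, 5.78% were marked. Genes that embryonic stem cells use were sparse in the mark, with Nanog at 0.694, Sox2 at 0.304 and Zfp42 at 0.243 times the median gene. Of 8 genes of fibroblasts or feeder cells, 1 was marked (Thy1, at 6.05 times), and H3K27me3 over a gene does not report its RNA level.

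The first question was how much H3K27me3 each LIM homeobox gene carried. The mark lay over 9 of the 10, and the median of all 10 was 7.80 times the median gene. Isl2, at 13.7 times, stood highest and Lmx1a, at 2.67 times, was the 1 gene below the limit; 5 genes (Isl2, Lhx3, Lhx5, Lhx2 and Lmx1b) were above 8 times. The 3 densest genes are the 3 shortest (Isl2 8.99 kb, Lhx3 8.04 kb, Lhx5 9.57 kb), and Lmx1a is the longest, at 160 kb.

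Isl2, which acts in motor neurons and retinal ganglion cells, lies on chromosome 9 (55538677 to 55547667, mm10). Its density was 5.34 (clone A) and 4.45 (clone B) at 2 h, against 5.27 (clone A) and 4.53 (clone B) at 0 h. Both clone A libraries were above both clone B libraries, while the times overlapped. The clones were apart in this way in Lhx3, Lhx5, Lhx2, Lmx1b, Lhx9 and Lhx6 too, so this is not particular to Isl2. The share of all genes that show it was not counted, and 52.4% of marked genes were called higher in clone A (edgeR, below).

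Lhx3 and Lhx4 direct pituitary and motor neuron development together. Lhx3 (chromosome 2, 26200212 to 26208249) had densities of 4.80 (A) and 4.29 (B) at 2 h, against 4.54 (A) and 4.24 (B) at 0 h. Lhx4 (chromosome 1, 155698031 to 155751726) had 1.84 (A) and 1.78 (B) at 2 h, against 1.81 (A) and 1.83 (B) at 0 h. Lhx3 was the denser of this pair in 4 of 4 libraries, by 1.30 ± 0.07 on the log2 scale (SD, n = 4 libraries), a 2.46-fold difference in density.

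Lhx5, a regulator of forebrain and Purkinje cell development and the close relative of Lhx1, lies on chromosome 5 (120431886 to 120441457). It had 4.77 (A) and 3.96 (B) as density at 2 h, against 4.58 (A) and 3.90 (B) at 0 h. Clone A was the higher at either time, as in Isl2.

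Lhx2 and Lhx9 are relatives that act in the forebrain, eye and limb (Lhx2) and in the gonad and spinal cord (Lhx9). Lhx2 (chromosome 2, 38339281 to 38369737) had densities of 4.13 (A) and 3.63 (B) at 2 h, against 4.17 (A) and 3.78 (B) at 0 h. Lhx9 (chromosome 1, 138825186 to 138847579) had 2.71 (A) and 2.42 (B) at 2 h, against 2.87 (A) and 2.48 (B) at 0 h. Lhx2 was denser than Lhx9 in 4 of 4 libraries, with a log2 ratio of 0.59 ± 0.03 (SD, n = 4), the lowest SD of the 4 ratios between relatives.

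Lhx6 and Lhx8 are expressed by progenitors of the ventral forebrain, Lhx6 specifying cortical interneurons and Lhx8 cholinergic neurons. Lhx6 (chromosome 2, 36081953 to 36105408) had 2.80 (A) and 2.24 (B) at 2 h, against 2.70 (A) and 2.32 (B) at 0 h. Lhx8 (chromosome 3, 154306293 to 154330560) had 1.57 (A) and 1.54 (B) at 2 h, against 1.67 (A) and 1.63 (B) at 0 h. Lhx6 was 1.56-fold denser over nearly equal lengths (23.5 kb and 24.3 kb), with a log2 ratio of 0.64 ± 0.15 (SD, n = 4).

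Lmx1b and Lmx1a both specify midbrain dopaminergic neurons, and Lmx1b also patterns the dorsal limb. Lmx1b (chromosome 2, 33560965 to 33640973) had 3.48 (A) and 2.59 (B) at 2 h, against 3.18 (A) and 2.54 (B) at 0 h. Lmx1a (chromosome 1, 167688900 to 167848741) had 0.944 (A) and 0.961 (B) at 2 h, against 0.944 (A) and 0.968 (B) at 0 h. This was the widest gap between relatives, 3.06-fold, with a log2 ratio of 1.61 ± 0.24 (SD, n = 4) that was 1.82 on average in clone A and 1.41 in clone B.

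In order of mean density the genes ran Isl2, Lhx3, Lhx5, Lhx2, Lmx1b, Lhx9, Lhx6, Lhx4, Lhx8 and Lmx1a. Neighbours in this order kept their order in 4 of 4 libraries, except Lhx3 over Lhx5 (3 of 4; log2 difference 0.06 ± 0.07) and Lhx9 over Lhx6 (3 of 4; 0.06 ± 0.08), whose differences were within the SD over libraries. With 4 libraries, an exact two-sided permutation test of signs cannot give a p below 0.125.

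**Figure D1:**
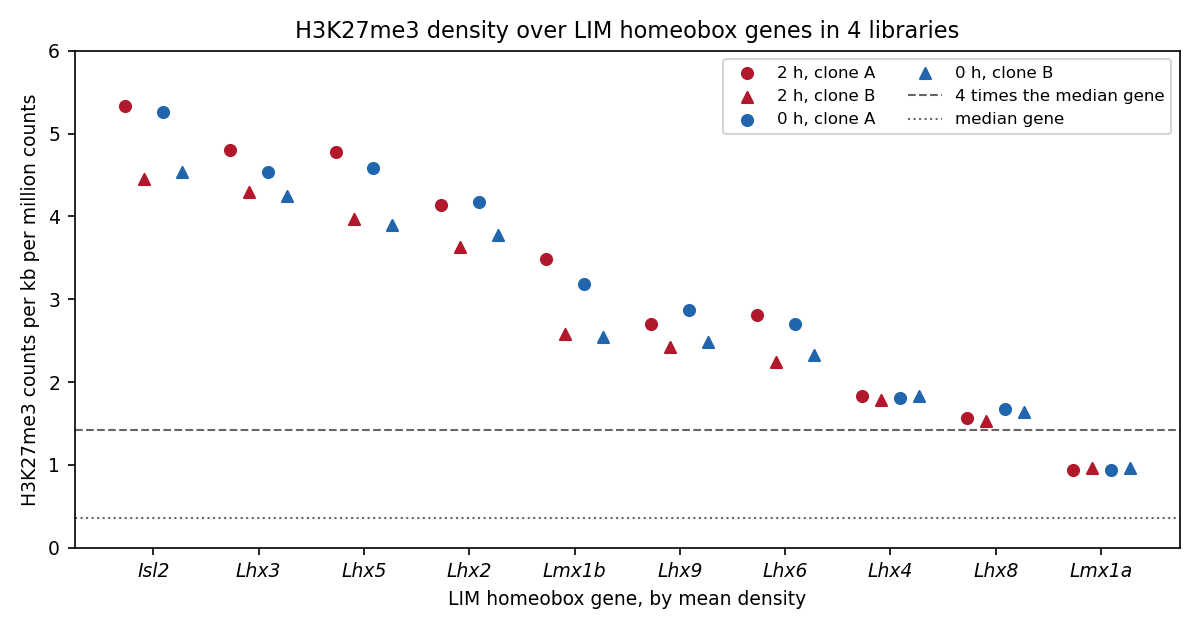
H3K27me3 density (counts per kb and per 1000000 counts, linear axis) of the 10 LIM homeobox genes, 1 point per library, with 2 h in red left of 0 h in blue, clone A as circles and clone B as triangles. The dashed line is 4 times the median gene and the dotted line the median gene (0.357). Lmx1a lies under the dashed line in all 4 libraries. For Lmx1b the circles (3.48 and 3.18) lie above the triangles (2.59 and 2.54), as they do for Isl2, Lhx3, Lhx5, Lhx2, Lhx9 and Lhx6.

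Nested transcripts allowed a finer view within 9 of the genes. Where a shorter transcript shares its 3′ end with a longer one (within 10 bp), the counts of the shorter interval were taken from those of the longer, which leaves the 5′ part. The mark was denser in the 5′ part than in the rest for 5 of the 7 genes that allowed this, in 4 of 4 libraries each. Other genes were not divided in this way, so the count cannot be set beside a share over all or marked genes. Lhx8 showed the widest difference: its 5′ part of 1.92 kb had 3.64 (A) and 3.32 (B) at 2 h and 4.18 (A) and 3.49 (B) at 0 h. The other 22.3 kb had 1.39 (A) and 1.38 (B) at 2 h and 1.46 (A) and 1.47 (B) at 0 h, so the 5′ part was 2.56-fold denser (log2 difference 1.35 ± 0.13, SD, n = 4).

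Lmx1a, unmarked over its whole span, had 2.37 ± 0.384 in its 5′ part and 0.948 ± 0.0138 in the rest (SD, n = 4), or 6.64 and 2.66 times the median gene. That 5′ part is short (0.666 kb) and rests on 163 (A) and 113 (B) counts at 2 h and 129 (A) and 113 (B) counts at 0 h. The 5′ parts of Lhx9, Lhx6 and Lhx2 were 1.61-, 1.47- and 1.44-fold denser than the rest (log2 0.68 ± 0.07, 0.56 ± 0.09 and 0.53 ± 0.02). For Lhx9 the rest leaves out the 3′ end of the gene, since the nested pair stops short of it. Lmx1b had similar values along its length, with 2.99 ± 0.410 in the 5′ part of 56.6 kb and 2.84 ± 0.589 in the other 23.4 kb. In Lhx3 the 5′ part was the less dense in 4 of 4 libraries, at 4.29 ± 0.0985 against 4.67 ± 0.435 (0.917-fold).

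Isl2 and Lhx4 have a shorter transcript inside the longer one. The flanks of Isl2 (3.96 kb) had 4.72 ± 0.406 and its inner interval 5.03 ± 0.525, and the flanks of Lhx4 (13.4 kb) had 2.05 ± 0.0302 against 1.74 ± 0.0297 inside (SD, n = 4). Both differences were small but kept 1 direction. The flanks of Lhx4 were the denser in 4 of 4 libraries (1.18-fold), and those of Isl2 in 0 of 4 (0.939-fold). Lhx5 has 1 interval and could not be divided. Where counting took any overlap, a read across a boundary falls to the shorter interval, which lowers the values of the 5′ parts and flanks slightly.

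**Figure D2:**
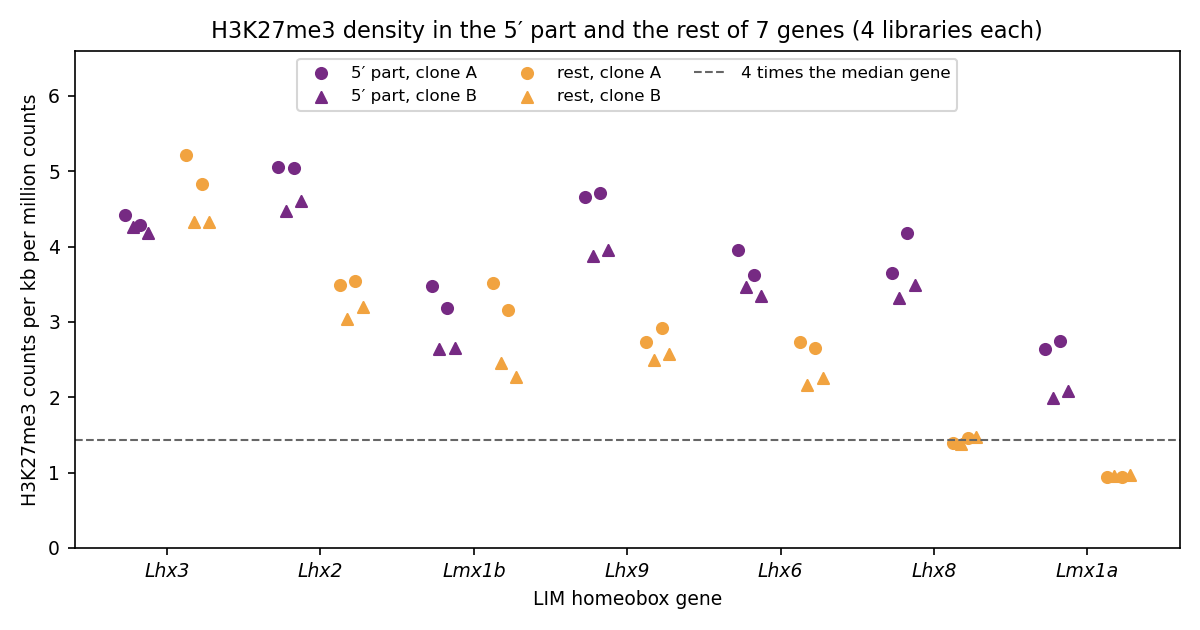
H3K27me3 density (counts per kb and per 1000000 counts, linear axis) in the 5′ part (purple) and in the rest (orange) of 7 LIM homeobox genes, 4 libraries each, clone A as circles and clone B as triangles, with 2 h left of 0 h for each clone. The dashed line is 4 times the median gene; the 5′ parts of Lhx8 and Lmx1a lie above it while their remainders lie close to it (Lhx8) or under it (Lmx1a).

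Beyond the genes themselves, the nearest named genes on the 5′ side carried dense H3K27me3 at 4 loci, and no gene on the 3′ side was marked. Of all named genes 5.78% were marked, so the absence on the 3′ side is near that share. The 4 marked neighbours are noncoding RNA genes on the opposite strand, whose intervals begin 53 to 260 bp from the LIM homeobox interval: Gm46736 by Lhx2, Gm27199 by Lhx5, C130021I20Rik by Lmx1b and AI606473 by Lhx8.

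Beside Lhx8, AI606473 had 4.73 (A) and 4.29 (B) at 2 h, against 4.80 (A) and 4.29 (B) at 0 h, or 12.7 times the median gene, where Lhx8 had 4.49 times. C130021I20Rik had 5.27 (A) and 4.29 (B) at 2 h, against 5.20 (A) and 4.23 (B) at 0 h, or 13.3 times, where Lmx1b had 8.26 times. Gm46736 reached 13.7 times and Gm27199 reached 9.66 times. At 3 of these 4 loci the noncoding gene was therefore denser than its LIM homeobox partner, Lhx5 being the exception. The noncoding intervals at those 3 loci are short (3.87 to 4.47 kb) and are set here against whole genes. The 5′ parts alone had 13.4 times the median gene in Lhx2, 10.2 in Lhx8 and 8.38 in Lmx1b.

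The other 6 genes on the 5′ side lay 0.874 to 49.3 kb away and were unmarked, from 0.260 times the median for Rbm18, beside Lhx6, to 3.99 times for Rxrg, a retinoid receptor gene beside Lmx1a. Qsox2, 0.874 kb from Lhx3, stood at 0.342 times the median, where Lhx3 had 12.5 times. Scaper, 2.21 kb past the 3′ end of Isl2, stood at 1.15 times. In all, 0 of 11 coding neighbours were marked, which is near the share over all named genes (5.78%). Of the 10 LIM homeobox genes, 6 were denser than both their neighbours, a count that was not made for other marked genes. Within the genes, the antisense intervals Gm27197 in Lhx2 and Gm39790 in Lmx1b reached 16.3 and 14.5 times the median; no source used here says whether counting used strand, so their reads cannot be told apart from those of the host genes.

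**Figure D3:**
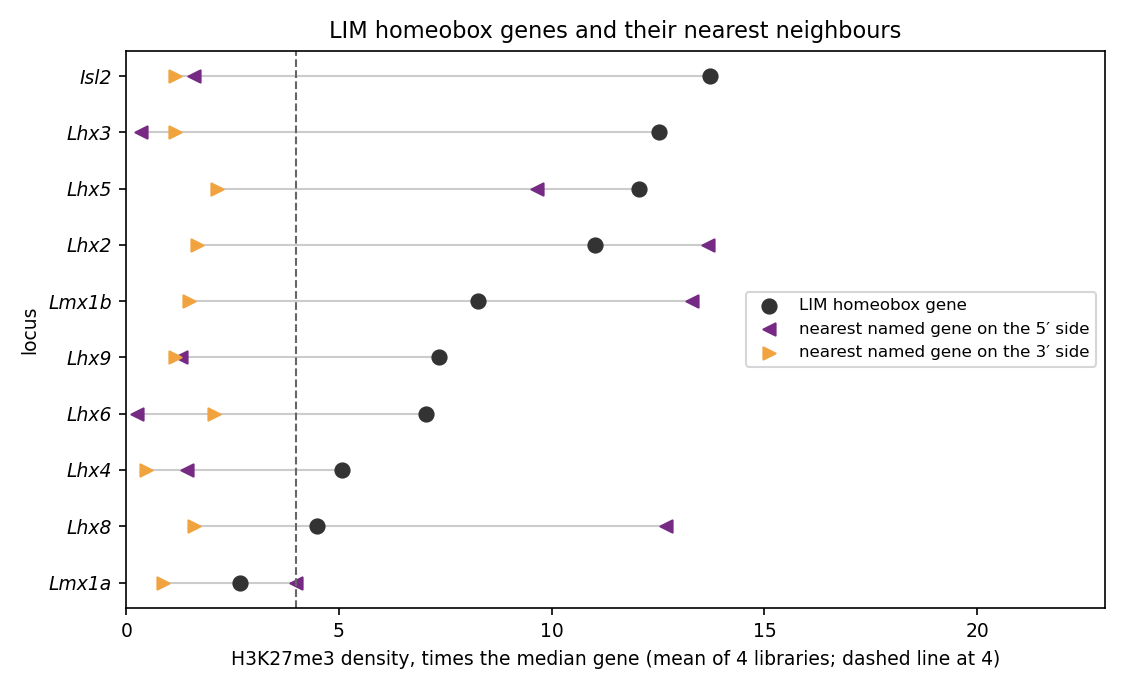
H3K27me3 density as multiples of the median named gene (mean of 4 libraries, linear axis) for each LIM homeobox gene (circle) and its nearest named gene on the 5′ side (purple) and 3′ side (orange). The dashed line is the limit of 4; the 5′ neighbours of Lhx5, Lhx2, Lmx1b and Lhx8 lie right of it, at 9.66 to 13.7, and all the 3′ neighbours lie left of it.

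The sequences at the starts of 4 of these genes, chosen after the values were seen, are shown. Lhx2, Lmx1a and Lhx8 had a denser 5′ part, while Lmx1b was nearly even (1.05-fold) and has a dense 5′ neighbour. Lhx9 and Lhx6, whose 5′ parts were also denser, are not shown. Each stretch shown is the 250 bases before the annotated start (RefSeq, GRCm38.p6), written 5′ to 3′ in the direction of the gene, with CpG dinucleotides in capitals. They are Lhx2 at chr2:38339031-38339280 (plus strand), Lmx1b at chr2:33641099-33641348 (minus), Lmx1a at chr1:167689308-167689557 (plus) and Lhx8 at chr3:154330561-154330810 (minus).
Lhx2: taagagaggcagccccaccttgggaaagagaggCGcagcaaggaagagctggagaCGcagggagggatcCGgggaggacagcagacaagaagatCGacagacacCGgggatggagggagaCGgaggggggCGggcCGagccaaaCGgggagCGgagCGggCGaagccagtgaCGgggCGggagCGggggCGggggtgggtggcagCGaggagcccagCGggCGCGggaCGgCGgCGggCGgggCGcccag
Lmx1b: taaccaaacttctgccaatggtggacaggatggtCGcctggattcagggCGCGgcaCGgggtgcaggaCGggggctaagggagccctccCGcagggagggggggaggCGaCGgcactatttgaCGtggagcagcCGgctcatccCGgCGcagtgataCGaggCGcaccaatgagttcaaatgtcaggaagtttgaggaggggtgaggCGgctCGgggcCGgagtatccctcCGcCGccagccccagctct
Lmx1a: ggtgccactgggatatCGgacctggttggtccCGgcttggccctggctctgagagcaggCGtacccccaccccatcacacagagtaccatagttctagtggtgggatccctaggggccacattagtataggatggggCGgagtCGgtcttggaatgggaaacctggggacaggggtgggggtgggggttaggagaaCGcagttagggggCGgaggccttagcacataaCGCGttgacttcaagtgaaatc
Lhx8: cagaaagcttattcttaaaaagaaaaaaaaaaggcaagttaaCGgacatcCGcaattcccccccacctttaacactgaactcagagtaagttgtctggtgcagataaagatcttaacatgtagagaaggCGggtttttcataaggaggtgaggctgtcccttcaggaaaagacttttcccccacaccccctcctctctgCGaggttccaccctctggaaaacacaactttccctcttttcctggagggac
The Lhx2 stretch holds 25 CpG, the Lmx1b stretch 19, the Lmx1a stretch 9 and the Lhx8 stretch 4. The dense intervals of Gm46736 and C130021I20Rik cover 197 bases of the Lhx2 and 156 bases of the Lmx1b stretch. The Lmx1a stretch lies wholly in the 5′ part that had 6.64 times the median density, since this annotated start is 0.658 kb inside the interval. The Lhx8 stretch lies in the gap between the Lhx8 and AI606473 intervals, and is poor in CpG although the intervals on either side of it were dense.

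RefSeq start windows of 300 bases (250 before the start and 50 after) were at hand for 9 of the 10 genes, 13 windows in all. They held a median of 17 CpG, against a median of 7 over 32851 windows of all genes, and 11 of the 13 were above that. The range ran from 4 in Lhx8 and 6 in Lhx9 to 29 and 34 in Lhx2. The 2 windows of Lhx3 had 13 and 28. For Isl2 (23 CpG), Lhx4 (19) and Lhx9 (6) the window belongs to the start of a shorter transcript, 2.47, 9.70 and 5.13 kb inside the interval whose density is given, so their CpG counts do not describe the start of that interval.

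The second question was whether 2 h of 4OHT altered the mark over these genes. No LIM homeobox gene passed the test in either direction, and 0% of all 50037 intervals did (edgeR quasi-likelihood test, Benjamini-Hochberg adjusted p under 0.05). The log2 changes of the 10 genes ran from −0.09 (SE 0.09) for Lhx8 to 0.09 (SE 0.17) for Lmx1b, with a median of −0.01, and the median over all intervals was 0.01. Every adjusted p was 1.00 and the unadjusted p-values ran from 0.341 (Lhx8) to 0.985 (Isl2) by edgeR. Over all intervals, 188 had an unadjusted p under 0.05 by edgeR and 2 by DESeq2, which also called 0. With the clone as a block, edgeR gave 2078 such intervals and again called 0. The main fit keeps the difference between clones in its spread. For the 10 genes its SE reached 0.168, against 0.0553 with the block. The lack of calls is therefore not evidence that nothing changed.

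Lmx1b averaged 3.03 ± 0.635 at 2 h and 2.86 ± 0.451 at 0 h, and Isl2 averaged 4.89 ± 0.628 at 2 h and 4.90 ± 0.520 at 0 h (SD, n = 2 each). The spread between clones exceeded the difference between times for both. Lhx8 averaged 1.55 ± 0.0240 at 2 h and 1.65 ± 0.0275 at 0 h, and was lower at 2 h in both clones, by a log2 change of −0.07 in A and −0.12 in B. The 2 h and 0 h libraries of Lhx8 did not overlap, though the gene did not pass. With 2 against 2 libraries, an exact two-sided permutation test cannot give a p below 0.333. Lhx9 was also lower in both clones (−0.07 and −0.06), and the other 8 genes went opposite ways in A and B. The shares of all intervals without overlap between times, or lower in both clones, were not counted.

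The 95% intervals of the changes, unadjusted for the number of tests, reached from −0.33 (Lhx9) to 0.49 (Lmx1b) on the log2 scale. In the fit with the clone as a block they reached from −0.20 (Lhx8) to 0.17 (Lmx1b), and no gene passed there (lowest unadjusted p 0.0841, for Lhx8). The 5′ parts of the 7 divided genes, fitted together with all intervals, had log2 differences of −0.14 (Lhx8) to 0.09 (Lhx6), and none passed (adjusted p = 1.00 for each, edgeR).

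The third comparison set clone A against clone B, each with its 2 libraries (2 h and 0 h). In clone A, 7 of the 10 LIM homeobox genes were called higher, the 7 densest, and 0 lower. By the same edgeR test 17.3% of all intervals were called higher in A and 10.3% lower, and with 1 interval per named gene 15.4% and 10.1%. Among 1160 marked genes 52.4% were called higher in A and 2.93% lower, so the 7 of 10 is to be read against that share. The median log2 difference was 0.19 for the LIM homeobox genes and 0.19 for marked genes, against 0.00 for all intervals.

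Lmx1b differed most, with 3.33 ± 0.215 in clone A and 2.56 ± 0.0309 in clone B (SD, n = 2 each), a log2 difference of 0.40 (SE 0.05, adjusted p = 1.22e-13 by edgeR). Lhx6 had 2.75 ± 0.0709 in clone A and 2.28 ± 0.0610 in clone B (0.29, SE 0.05, adjusted p = 4.29e-07 by edgeR). Lhx5 (0.27), Isl2 (0.26), Lhx9 (0.20), Lhx2 (0.18) and Lhx3 (0.15) were also called, with adjusted p from 8.83e-06 (Lhx5) to 0.0292 (Lhx3).

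The 3 sparsest genes did not pass. Lhx8 had 1.62 ± 0.0731 in clone A and 1.59 ± 0.0695 in clone B (log2 0.05, 95% interval −0.06 to 0.16), Lhx4 had 1.82 ± 0.0219 and 1.81 ± 0.0370 (0.03, −0.07 to 0.13) and Lmx1a had 0.944 in both libraries of A and 0.964 ± 0.00474 in B (−0.01, −0.11 to 0.08), clone A first in each. Between relatives the estimates stood at 0.40 for Lmx1b and −0.01 for Lmx1a, 0.29 for Lhx6 and 0.05 for Lhx8, and 0.18 for Lhx2 and 0.20 for Lhx9. The difference between relatives was not tested.

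Of the 3 sparse genes, Lhx8 and Lmx1a have a separable 5′ part, and in both its estimated difference between clones was larger than that of the whole gene, a contrast that was not itself tested. In the 5′ part of Lhx8 the log2 difference was 0.21 (SE 0.09, adjusted p = 0.0497 by edgeR) and in that of Lmx1a 0.42 (SE 0.16, adjusted p = 0.0322 by edgeR). These fits were added after seeing the data, and both calls were lost with column totals, with factors from marked genes and by DESeq2 (adjusted p = 0.225 for Lhx8 and 0.203 for Lmx1a). That of Lmx1a was lost without any 1 library (log2 0.35 to 0.46), and that of Lhx8 without any 1 but clone A at 2 h (0.13 to 0.31). The 5′ parts of Lmx1b (0.35), Lhx9 (0.28) and Lhx2 (0.17) were also called higher in clone A, and those of Lhx6 (0.18) and Lhx3 (0.06) were not. In Lmx1b, Lhx2, Lhx6 and Lhx3 the 5′ estimate was below that of the whole gene (0.40, 0.18, 0.29 and 0.15). In Lhx9 it was above (whole gene 0.20). The rest of Lmx1b had a log2 difference of 0.52 (SE 0.05), more than its 5′ part. The dense 5′ neighbours were called higher in clone A as well, with C130021I20Rik at 0.32, Gm46736 at 0.30 and AI606473 and Gm27199 at 0.17 each.

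The differences depended on the centring. With scaling factors taken from the marked genes alone, chosen after seeing the data, the median of all intervals shifted by −0.20 and 1 LIM homeobox gene was called higher in clone A (Lmx1b, 0.20, adjusted p = 0.00113 by edgeR) and 3 lower (Lmx1a, −0.21, Lhx4, −0.17, and Lhx8, −0.15). Over the 50037 intervals, the same factors left 2800 passing above 0 and 21186 below 0. The 3 lower genes are to be read against that background. How many marked genes passed with these factors is not given here. Among the marked genes of the family, Lmx1b was thus above, and Lhx4 and Lhx8 below, the difference shared by marked genes. In the main fit the difference between clones varied with density. Its median was 0.17 for named genes at 2.83 times the median gene or more, and 0.02 from 1.94 to 2.83 times. Lhx4 (5.08 times) and Lhx8 (4.49 times) lie near the limit of 4. Whether they differ from marked genes of like density was not tested. Lmx1a is not a marked gene, and its value of −0.21 lay close to the shift of −0.20 of all intervals. Without clone B at 2 h, 4 genes were called higher in clone A rather than 7: Lhx2 (0.11), Lhx9 (0.15) and Lhx3 (0.12) did not pass. Chromosome copy number was not tested; the median difference was 0.03 over named genes on chromosome 2, which holds 4 of the 10, and 0.00 on chromosome 1, which holds 3.

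**Figure D4:**
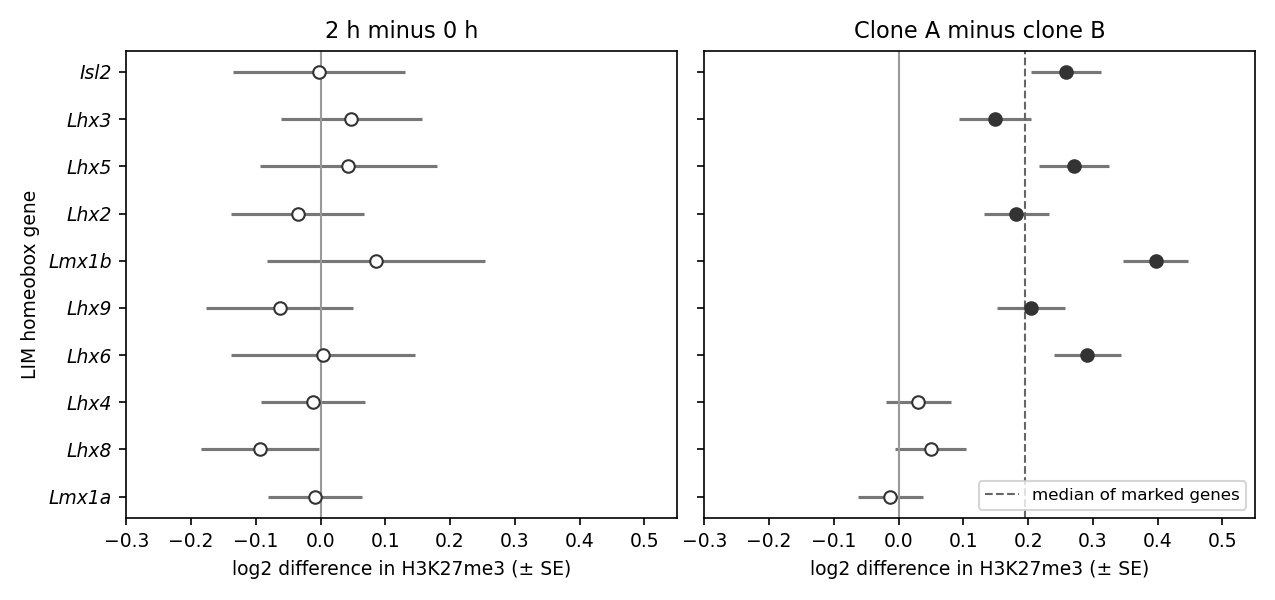
Log2 differences in H3K27me3 over the 10 LIM homeobox genes (points, with SE bars, from edgeR fits on all intervals), for 2 h minus 0 h on the left and clone A minus clone B on the right, with filled points where the adjusted p was under 0.05. On the left no point is filled and all lie within 0.1 of 0; on the right 7 are filled, around the median of marked genes (dashed line, 0.19), and with factors from marked genes only Lmx1b of these 7 passed.

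Among genes that work with the family, most measured partners in neurons and pituitary were marked. Most measured LIM cofactor and LIM-only genes were not, as was so for all named genes, of which 5.78% were marked. The lists were chosen with earlier results of these data known, so the counts only describe them. Of 16 measured genes in a list of such partners, 15 were marked, with a median of 10.6 times the median gene, led by Mnx1, a motor neuron factor, at 13.9, Msx1 at 13.5 and Phox2a at 12.3 times. Of these 16, 13 were called higher and 0 lower in clone A, to be read against the 52.4% higher of marked genes, and 0 were called at 2 h. Their calls relative to marked genes were not counted. Of 8 measured LIM cofactor and LIM-only genes, 1 was marked (Lmo2, at 4.13 times), with a median of 1.12. The adaptor Ldb1 was not among these 8. Lmo1, at 3.46 times, and Lmo4, at 2.80 times, followed, and Rlim, a ubiquitin ligase that acts on the adaptor complexes, was at 0.165 times. Lmo4 was higher in clone A by 0.46 (SE 0.07, adjusted p = 8.03e-11 by edgeR), and of the 8 genes 3 were called higher and 1 lower in clone A, where 15.4% and 10.1% of named genes were.

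Of 24 measured LIM domain genes that lack a homeodomain, such as adhesion and cytoskeletal proteins, 1 was marked (Tgfb1i1, at 4.14 times). This is near the share over all named genes (5.78%), and the median of the 24 was 0.923 times the median gene. Fhl2 stood at 2.31 and Pdlim3 at 2.14 times, and Csrp3 at 1.75 times. Of these 24, 4 were called higher and 4 lower in clone A, near the shares over named genes (15.4% and 10.1%), and 0 were called at 2 h. In all lists, intervals of short genes can lie wholly in a marked stretch: the median length was 23862 bp for the LIM homeobox genes, 4689 bp for the partner list, 30388 bp for the cofactors and 37370 bp for the LIM domain genes.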

How the data were processed

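H3K27me3 ChIP-seq libraries of 2 clones at 2 h and 0 h were analysed (4 libraries). Per transcript interval, the authors deposited whole read counts, with introns, per the file headers. Bowtie2, bedtools and mm10 are named in the submitters' processing notes; versions, settings and any read filter were not given in the sources used here. Another 12 per-library columns, which name no sample, were left out. Another interval overlaps 84.8% of the 50398, so column totals are not sequencing depths and reads are shared between isoforms.

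Names came from RefSeq genes (GRCm38.p6) whose span an interval matched (at least 0.5 of the union and 0.2 more than the next gene), which named 43793, and a gene's values come from its best interval. Differences were tested with edgeR 4.0.16 (quasi-likelihood, TMM, filterByExpr) in R 4.3.3 on 50037 intervals, all 10 LIM homeobox intervals included, at a Benjamini-Hochberg adjusted p of 0.05; DESeq2 1.42.0, other factors and filters, blocks and left-out libraries were alternatives. The scripts were tested on simulated data. The labels give each clone a library at either time, which pairs libraries by clone; deviations of a clone's libraries from the time means correlated at 0.514 across intervals. The genes and lists were chosen with earlier results of these data known. Named were the 10 genes, the nearest named gene on each side, other intervals in the loci, up to 4 genes per other list by density, and the 5 genes most alike in level; some items under this rule are not reported here. Outside that rule, Rlim, Sox2 and Zfp42 were named after their values were seen, as were the 4 printed promoters. In the main fit over time the p-values rest on the spread between the 2 clones, and in that between clones on the spread between times. Neither is a spread between replicates of 1 clone at 1 time, and both fits pool variability over intervals. The SE over time reached 0.168 in the main fit and 0.0553 with the clone as a block. The spread between these libraries may be technical, and reads without molecular identifiers limit the precision of counts.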

Additional observations from a re-analysis of the deposited data

Results flagged for a closer look

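In 8 of the 10 genes the log2 change from 0 h to 2 h was above 0 in clone A and below 0 in clone B, and with 1 library per clone and time the difference was not tested. The same signs were seen in 394 of 1160 marked genes and 13523 of 50037 fitted intervals, and the reverse signs in 103 and 11938 of them. The change in A minus that in B was 0.154 for Lmx1b, 0.154 for Lhx6, 0.113 for Lhx4 and 0.109 for Lhx3. It was 0.0925 for Isl2, 0.0924 for Lhx2, 0.0812 for Lhx5 and 0.0569 for Lmx1a. Lmx1b changed by 0.15 in A and −0.00 in B, and Lhx6 by 0.07 and −0.08. These 8 values come from the same 4 libraries and are not independent of each other.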

How the results depend on the processing

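Between 2 h and 0 h no gene of the family passed under any alternative run (lowest adjusted p 1.00), and 0 intervals were called except 1 lower without the clone A library at 2 h. The sign over time turned under at least 1 alternative for 9 of the 10 genes; Lhx8 stayed below 0 throughout (−0.13 to −0.08 without 1 library), as did its 5′ part (−0.27 to −0.0083). For the others, leaving out each library in turn gave log2 ranges of −0.16 to 0.12 for Isl2, −0.15 to 0.0516 for Lhx2, −0.0569 to 0.12 for Lhx3, −0.0554 to 0.0078 for Lhx4, −0.12 to 0.17 for Lhx5, −0.19 to 0.15 for Lhx6, −0.17 to 0.0439 for Lhx9, −0.029 to 0.0059 for Lmx1a and −0.17 to 0.28 for Lmx1b. For their 5′ parts the ranges were −0.1346 to 0.0609 for Lhx2, −0.0118 to 0.0563 for Lhx3, −0.034 to 0.1787 for Lhx6, −0.1852 to 0.1053 for Lhx9, −0.2972 to 0.1512 for Lmx1a and −0.1698 to 0.2435 for Lmx1b. Lhx6 over time also turned to −0.005 with DESeq2, −0.0049 with its size factors in edgeR, −0.0034 with the replicate block (clone) and −0.0322 with factors from marked genes, and Isl2 to 0.0004 with 1 interval per gene. Fits without a library leave 1 group with a single library, which is assumed to vary like the others.

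Between clones, 8633 intervals passed as higher in A and 5132 as lower. DESeq2 gave 5681 and 3035, 1 interval per gene 3181 and 2110 (of fewer intervals tested), factors from marked genes 2800 and 21186, and leaving out each library 5252 to 8087 and 3414 to 4398. Of the 10 genes, 4 to 7 were called higher without 1 library, and 1 higher and 3 lower with factors from marked genes. With those factors the log2 differences of Lhx3 (−0.0487), Lhx2 (−0.0151), Lhx4 (−0.1667) and Lhx8 (−0.1468) and of the 5′ parts of Lhx3 (−0.1351), Lhx2 (−0.0236) and Lhx6 (−0.0202) turned below 0. Without 1 library Lhx4 ran from −0.0314 to 0.0583 and Lhx8 from −0.0349 to 0.10. The replicate block (time) called 8450 intervals higher and 4960 lower, left 7 genes called higher in clone A and ended the call of the 5′ part of Lhx8 (adjusted p = 0.0523 by edgeR). Lhx3 also lost its call with DESeq2 (adjusted p = 0.109), with DESeq2 size factors in edgeR (0.0809) and without any of 3 libraries. At limits of 2 and 8 times the median gene, 10 and 5 genes were marked in place of 9. Each group holds 2 libraries, input was not analysed, and whole-transcript counts dilute a mark confined to a promoter.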

Other observations

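Among 12385 coding genes of at least 1000 bp, those whose log2 densities over the 4 libraries lay closest to the median profile of the LIM homeobox genes included Nes, which encodes a neural progenitor filament, Arid3c, Rrs1 and B3gnt6. Their densities were 7.69 to 7.83 times the median gene and their distances 0.0682 (Nes) to 0.107 (B3gnt6) in log2 units. Likeness here is mostly of level, since the 4 libraries differ little.

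The hexamer TAATTA, a core that homeodomains bind and that reads the same on both strands, was in 0 of the 13 start windows of the LIM homeobox genes and in 5.29% of all 32851 windows of the same length. This says only that these letters are not in these windows.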
